A study of Mus musculus with 44 samples.

Results

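The 9 genes P2ry12, P2ry13, P2ry6, P2rx4, P2rx7, Entpd1, Nt5e, Adora3 and Adora1 encode receptors for extracellular nucleotides and adenosine and the ectoenzymes that turn the former into the latter. They were taken by symbol, and all 9 were found among the 50714 gene identifiers shared by every library. Their RNA was followed through 44 libraries made from the dorsal cortex together with hippocampus, taken at postnatal day 28 to 29. Each library gives the RNA of a tissue fraction, or the RNA attached to tagged ribosomes that an antibody pulled out of that fraction (translating ribosome affinity purification, TRAP).

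All mice carried 1 copy of CX3CR1-CreERT2, a Cre recombinase that tamoxifen switches on in cells using the Cx3cr1 promoter, and 1 copy of RPL10a-GFP flox, a ribosomal protein fused to GFP. That is the sample labels' account, whereas the series text writes the reporter as fl/fl. The Cx3cr1 promoter is active in microglia and also in other macrophages and some blood cells. Tamoxifen mice received 100 mg/kg on postnatal days 15, 17 and 19. Control mice had the same alleles and vehicle by the sample labels, and are called untreated in the series text. Input was RNA of the whole homogenate and MG_TRAP the immunoprecipitate from it. SN_input was RNA of the synaptosome fraction, a preparation of pinched-off synapses and the cell processes around them, and PeMP_TRAP the immunoprecipitate from that fraction (its second-set titles read SN_TRAP). Control letters A to C (n = 3) and tamoxifen letters D to F (n = 3) form a first set, and tamoxifen letters G to K (n = 5) a second set without controls. The labels do not say that the letters are separate animals, so the p-values here measure only the spread between these libraries.

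ATP and ADP leak from active or injured cells and draw microglial processes toward their source. P2Y12 and P2Y13 are ADP receptors that signal through inhibitory G proteins, P2Y6 is a receptor for UDP that is linked to phagocytosis, and P2X4 and P2X7 are ion channels opened by ATP. CD39, the product of Entpd1, removes phosphates from ATP and ADP, CD73 (Nt5e) makes adenosine from AMP, and the adenosine receptors A1 (Adora1, abundant on neurons) and A3 (Adora3) read the product.

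The depth of the libraries ran from 740679 to 35427238 assigned reads. A count of 0 still allows 3 counts, which corresponds to 0.0847 to 4.05 CPM (counts scaled to the same number of assigned reads in every library), and such limits cover counting error only. The 5 second-set PeMP_TRAP libraries stood apart, with 20352794 to 35427238 reads but only 5372 to 7369 genes detected. The median correlation between replicates was 0.591 to 0.693 in the 3 groups of PeMP_TRAP libraries and 0.764 to 0.994 in the other groups. The summed level of 10 microglial marker genes was 178 to 304 CPM in Input of tamoxifen mice, 13945 to 30460 in their MG_TRAP and 11574 to 46292 in their PeMP_TRAP, so the labelled cell type was present. In control mice the same sum was 2086 to 5384 CPM in MG_TRAP and 577 to 6366 in PeMP_TRAP. Lower cell numbers and lower RNA per cell cannot be told apart in such bulk libraries.

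In build GRCm38 (GENCODE M21), P2ry12 (ENSMUSG00000036353, chromosome 3, 59216272 to 59262871) and P2ry13 (ENSMUSG00000036362, chromosome 3, 59207892 to 59210882) lie side by side on the minus strand inside Med12l, which runs the other way. Their start-site regions are shown because these neighbours carried the highest levels of the 9 genes in MG_TRAP of tamoxifen mice. That of Entpd1 (ENSMUSG00000048120, chromosome 19, 40612366 to 40741602, plus strand) is shown as the ectoenzyme that was high in both immunoprecipitates, and that of Adora1 (ENSMUSG00000042429, chromosome 1, 134199223 to 134235431, minus strand) for contrast, as the gene that led in whole tissue. Each run is the 250 bases before a RefSeq start (GRCm38.p6), 5′ to 3′ on the gene's strand. Capitals mark GAGGAA or AGGAAGT on either strand, purine-rich words of the kind that PU.1, a lineage factor of macrophages, is known to bind.
P2ry12, chr3:59262986-59263235, minus strand: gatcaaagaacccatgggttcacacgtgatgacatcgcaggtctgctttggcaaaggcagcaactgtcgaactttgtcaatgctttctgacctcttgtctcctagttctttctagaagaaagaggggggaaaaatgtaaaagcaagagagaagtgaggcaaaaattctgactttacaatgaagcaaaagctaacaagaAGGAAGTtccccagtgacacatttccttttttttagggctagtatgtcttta
P2ry13, chr3:59210883-59211132, minus strand: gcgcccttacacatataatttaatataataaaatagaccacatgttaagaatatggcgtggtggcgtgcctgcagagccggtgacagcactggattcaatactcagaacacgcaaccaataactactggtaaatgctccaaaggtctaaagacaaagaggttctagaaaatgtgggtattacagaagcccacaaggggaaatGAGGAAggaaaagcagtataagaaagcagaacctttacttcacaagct
Entpd1, chr19:40659520-40659769, plus strand: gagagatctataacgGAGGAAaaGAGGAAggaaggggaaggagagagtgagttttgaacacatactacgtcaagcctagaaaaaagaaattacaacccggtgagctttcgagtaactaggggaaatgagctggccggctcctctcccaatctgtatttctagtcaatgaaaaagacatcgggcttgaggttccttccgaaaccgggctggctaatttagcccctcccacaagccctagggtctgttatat
Adora1, chr1:134235458-134235707, minus strand: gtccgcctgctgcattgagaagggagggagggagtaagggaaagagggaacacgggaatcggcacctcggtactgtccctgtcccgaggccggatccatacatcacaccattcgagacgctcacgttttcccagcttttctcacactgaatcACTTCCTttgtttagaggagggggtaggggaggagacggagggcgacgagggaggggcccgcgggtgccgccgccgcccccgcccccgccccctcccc
P2ry12 holds AGGAAGT from -52 to -46 bases and P2ry13 GAGGAA from -48 to -43, both on the gene's own strand, whereas Adora1 holds AGGAAGT on the other strand from -98 to -92. RefSeq gave 11 such regions for 8 of the genes, and P2ry6 was not among them. Either word occurred in 5 of the 11 regions (45.5%) and in 27.3% of all 32851 regions of that length. GAGGAA alone was in 3 of 11 and in 23.3% of all, AGGAAGT in 3 of 11 and in 7.69% of all, and the 2 words can overlap. Entpd1 and Adora1 each have a second region, chr19:40612116-40612365 and chr1:134234857-134235106, which holds neither word. The Entpd1 region without a match ends at the annotated start of the gene, and the printed one lies inside it. A match is a string of letters and not a measured binding site.

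In whole-cell TRAP of tamoxifen mice the P2Y receptors P2ry12, P2ry13 and P2ry6, the ectonucleotidase Entpd1 and the adenosine receptor Adora3 were higher than in the homogenate. The fold differences ran from 51.8 to 104. P2rx4, P2rx7, Nt5e and Adora1 were not called. That is 5 of 9 genes higher and 0 lower, where 4.75% of the 14736 genes tested were called higher and 1.51% lower at an adjusted p under 0.05. The median log2 fold change was 5.70 over the 9 genes and -0.11 over all genes. The question of this comparison is which RNAs ride on microglial ribosomes. Markers of microglia were called higher in 10 of 10 cases (median 6.58), those of border macrophages in 3 of 7 (median 4.21) and those of B and plasma cells in 3 of 3 tested (median 7.43). The summed level of 5 B and plasma cell markers was 14.3 to 97.2 CPM in Input and 558 to 2286 CPM in MG_TRAP, and that of 7 border macrophage markers 1.91 to 21.4 and 83.3 to 244 CPM. Their part in the levels of the 9 genes was not tested.

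**Figure D1:**
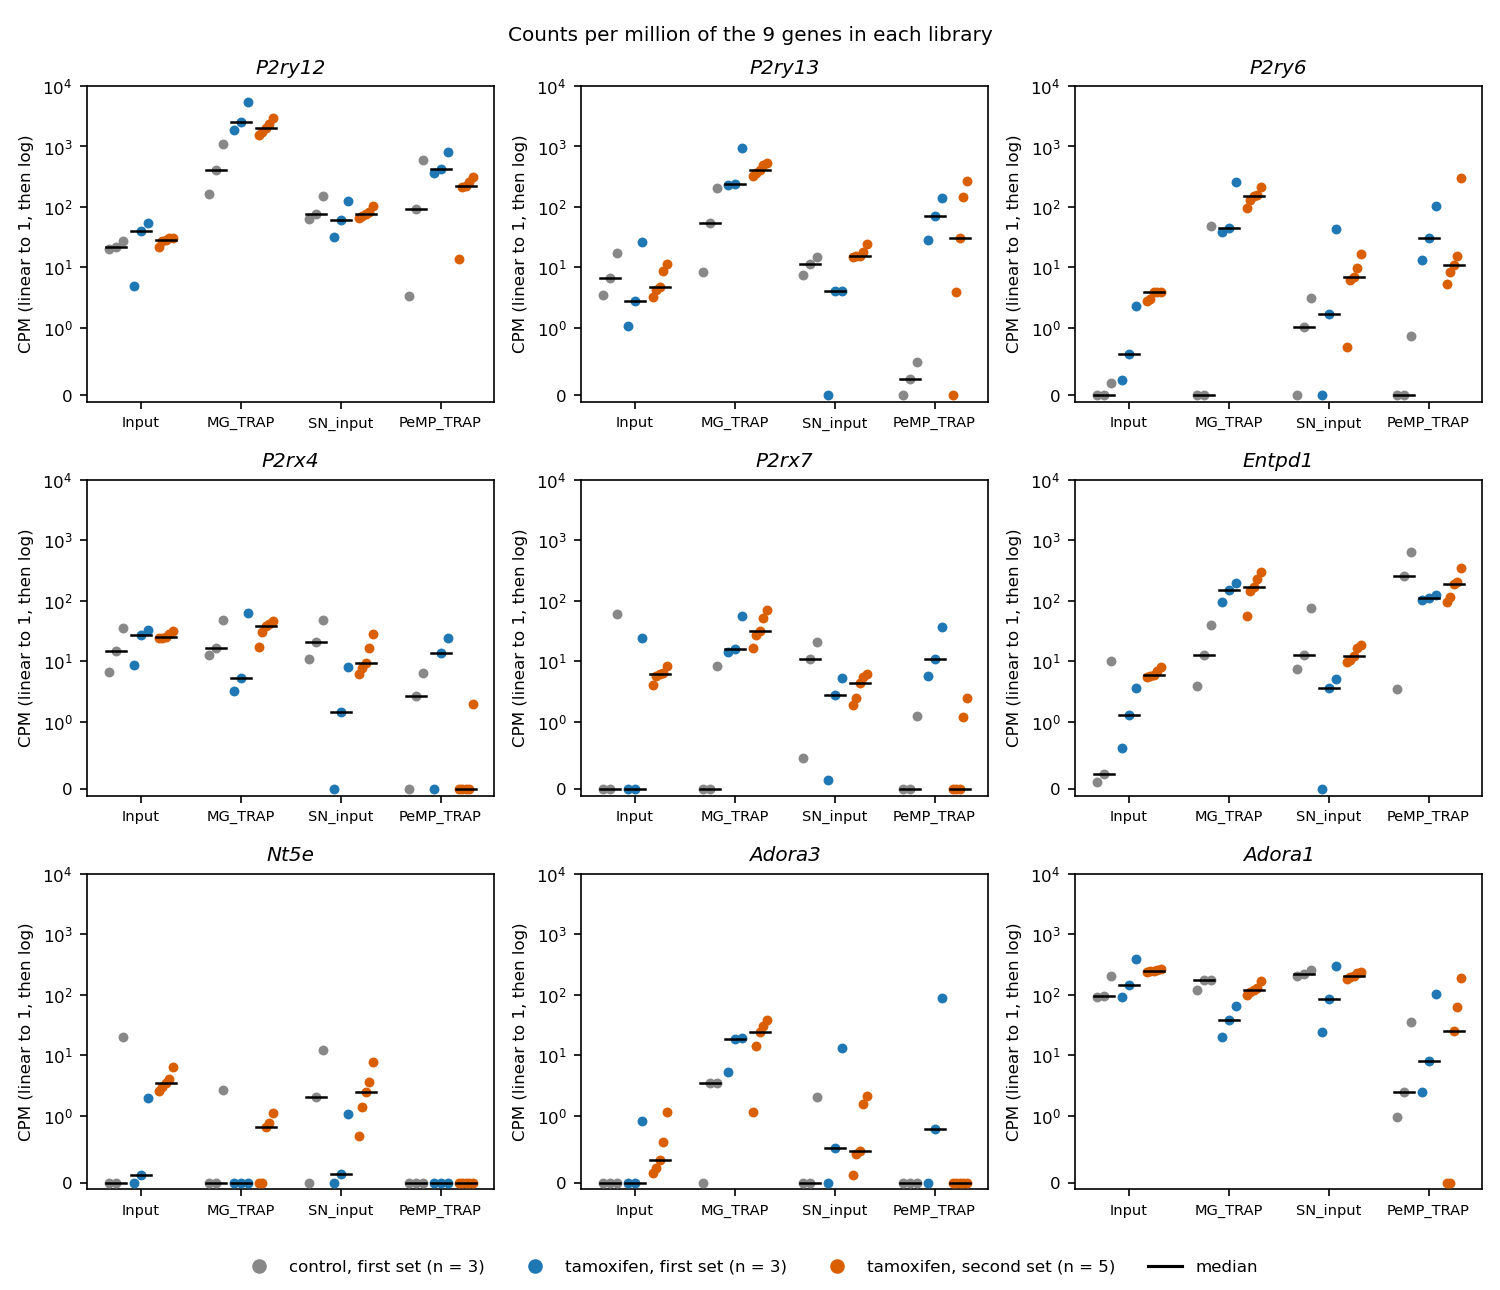
CPM of each gene (vertical axis, linear up to 1 and logarithmic above) in the 4 fractions (horizontal axis). Each point is a library, grey for control, blue for tamoxifen of the first set and orange for tamoxifen of the second set, and black bars are medians. P2ry12, P2ry13, P2ry6 and Entpd1 separate tamoxifen MG_TRAP from Input completely, and Nt5e is at 0 in every PeMP_TRAP library.

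P2ry12, the ADP receptor that steers process extension, stood at 4.88, 29.4 and 53.7 CPM (lowest, median and highest of 8 libraries) in Input of tamoxifen mice and at 1569, 2196 and 5512 CPM in MG_TRAP. All MG_TRAP libraries lay above all Input libraries, and D was the highest of them. The log2 fold change was 6.70 ± 0.56 (SE, n = 8 per fraction), or 104-fold (adjusted p = 4.36e-12). P2ry13, its neighbour and close relative, went from 1.09, 4.53 and 26.3 CPM to 233, 390 and 927 CPM, again without overlap. Its log2 fold change was 6.25 ± 1.02 (adjusted p = 3.3e-05).

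P2ry6 (ENSMUSG00000048779, chromosome 7, 100937630 to 100974649), the UDP receptor, went from 0.218, 2.93 and 3.96 CPM in Input to 38.5, 143 and 256 CPM in MG_TRAP. The ranges did not overlap, and the first-set libraries E and F were the lowest of the MG_TRAP values. The log2 fold change was 6.03 ± 1.08 (adjusted p = 0.000137). Entpd1 went from 0.610, 5.53 and 8.0 CPM to 55.2, 162 and 295 CPM, with no overlap and a log2 fold change of 5.70 ± 0.74 (adjusted p = 3.58e-07).

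The ATP-gated channels behaved otherwise. P2rx4 (ENSMUSG00000029470, chromosome 5, 122707544 to 122729738) was at 8.71, 25.9 and 32.9 CPM in Input and 3.21, 34.4 and 63.3 CPM in MG_TRAP. The ranges overlapped widely, and the log2 fold change was 0.57 with an interval (± 2 SE) from -1.90 to 3.03 (adjusted p = 0.911). P2rx7 (ENSMUSG00000029468, chromosome 5, 122643911 to 122691432) was at 0, 6.0 and 24.4 CPM in Input and 14.1, 29.5 and 69.5 CPM in MG_TRAP. It was higher in MG_TRAP in 7 of 8 letters, but its log2 value of 2.71 ± 1.29 was not called (adjusted p = 0.293).

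Adora3 (ENSMUSG00000000562, chromosome 3, 105870858 to 105908926) was at 0, 0.277 and 1.16 CPM in Input and 1.14, 18.7 and 38.3 CPM in MG_TRAP. Only J in MG_TRAP reached down into the Input range, and the log2 fold change was 5.70 ± 1.72 (adjusted p = 0.0353). That call was lost without any of D, F, G, H, I or K (adjusted p up to 0.0818), with size factors of another kind (0.0548) and in the first set alone (0.217). Adora3 shares 779 bases, 20.9% of its exon length, with Tmigd3 on the same strand, so some reads could belong to either gene.

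Adora1 was lower in MG_TRAP than in Input in 8 of 8 letters, at 91.7, 248 and 392 CPM in Input and 20.2, 105 and 165 CPM in MG_TRAP. The ranges overlapped and its log2 value of -1.10 ± 0.84 was not called (adjusted p = 0.626). Its exons overlap those of Mybph on the opposite strand over 1162 bases (20.1% of its length), and the strand setting of the counting is not given in the sources used here. Nt5e (ENSMUSG00000032420, chromosome 9, 88327197 to 88372092) was scarce in tamoxifen mice, with at most 6.26 CPM in Input and 1.09 in MG_TRAP, where 5 of 8 libraries were at 0. Its log2 value of -3.04 ± 1.24 was not called (adjusted p = 0.181).

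Per length, in RPKM, the CPM divided by exon length in kilobases, the order in tamoxifen MG_TRAP was P2ry12 with a median of 863, P2ry13 with 154, P2ry6 with 49.6, Entpd1 with 28.9 and Adora1 with 18.1. Adora3, P2rx7 and P2rx4 followed at 5.01, 4.94 and 4.90. The ranges of P2ry12 (616 to 2165), P2ry13 (92.3 to 367) and P2ry6 (13.3 to 88.5) did not overlap, whereas P2ry6 and Entpd1 (9.89 to 52.9) did. In Input the order was another: Adora1 led with a median of 42.8 RPKM, followed by P2ry12 with 11.5 and P2rx4 with 3.69. The ranges of Adora1 (15.9 to 67.8) and P2ry12 (1.92 to 21.1) overlapped there.

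Of the summed RPKM of the 9 genes, Adora1 took 41.6% to 75.0% in tamoxifen Input libraries and 0.406% to 3.37% in MG_TRAP. P2ry12 took 5.80% to 41.8% and 70.1% to 87.0% in the same order. In PeMP_TRAP the makeup was less even: P2ry12 took 5.48% to 81.7%, and Entpd1 had a median of 11.7% (4.66% to 37.3%), against 2.27% in MG_TRAP (1.17% to 3.66%). The shares of Entpd1 in the 2 immunoprecipitates did not overlap, but a share moves with the sum, which P2ry12 dominated in MG_TRAP, and the CPM of Entpd1 itself overlapped.

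**Figure D2:**
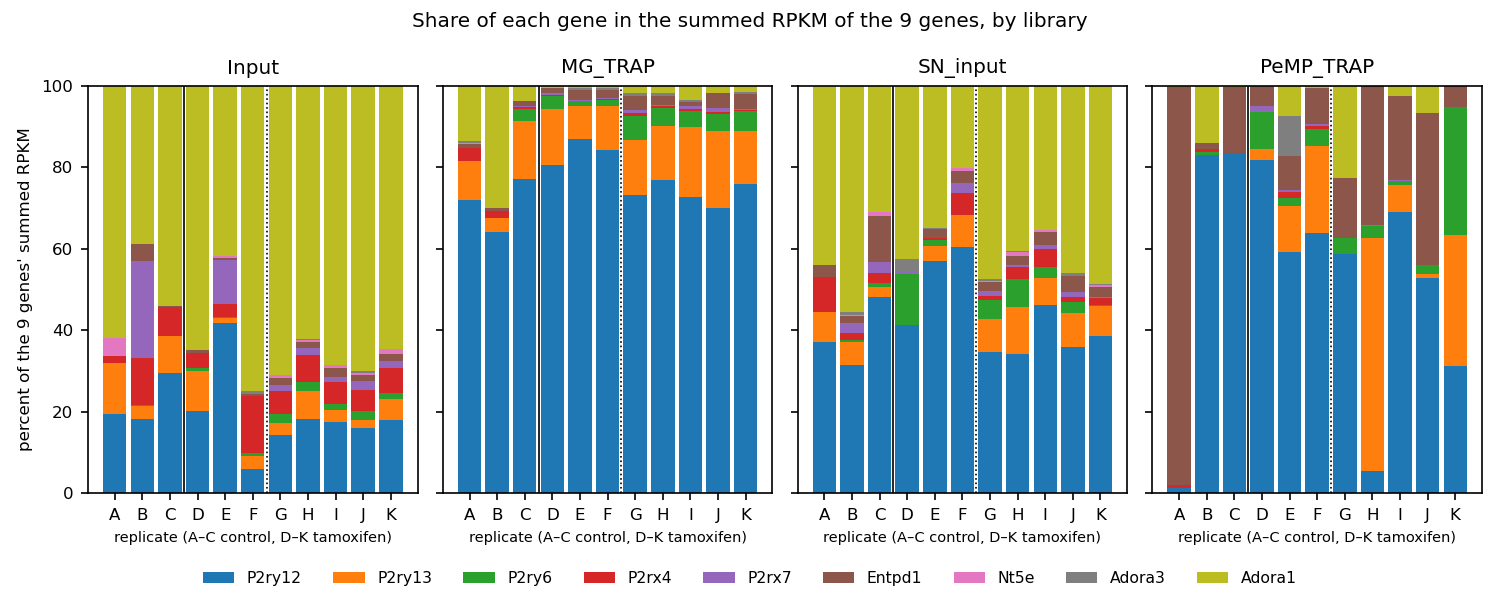
Share of each gene in the summed RPKM of the 9 genes (vertical axis, percent) for every library (horizontal axis, by replicate letter, control left of the solid line and the second set right of the dotted line). Adora1 takes the largest share in most Input libraries, P2ry12 takes over 70% in each tamoxifen MG_TRAP library, and the PeMP_TRAP bars differ from letter to letter.

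In the synaptosome fraction, P2ry12, P2ry13, P2ry6 and Entpd1 were higher in PeMP_TRAP than in the SN_input they came from, by 4.30-fold to 18.7-fold, and Nt5e was lower. This comparison asks which RNAs sit on microglial ribosomes in the processes near synapses. The count was 4 of 9 higher, where 6.24% of genes were called higher, and 1 of 9 lower, where 25.3% were called lower. Entpd1 had the largest difference of the 4. Markers of microglia were called higher in 10 of 10 cases (median 3.71) and those of B and plasma cells in 3 of 3 tested (median 10.57), while of 7 border macrophage markers 0 were higher and 2 lower. Their part in the levels of the 9 genes was not tested here either. With limma voom the calls of P2ry12 (1.46, adjusted p = 0.269), P2ry13 (0.91, adjusted p = 0.613) and P2ry6 (2.36, adjusted p = 0.0508) were lost, and P2rx4 (-4.09, adjusted p = 0.0151) and Adora1 were called lower, which left 1 of 9 higher and 3 lower. Over all genes limma voom called 8180 of 14736 here, in either direction.

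**Figure D3:**
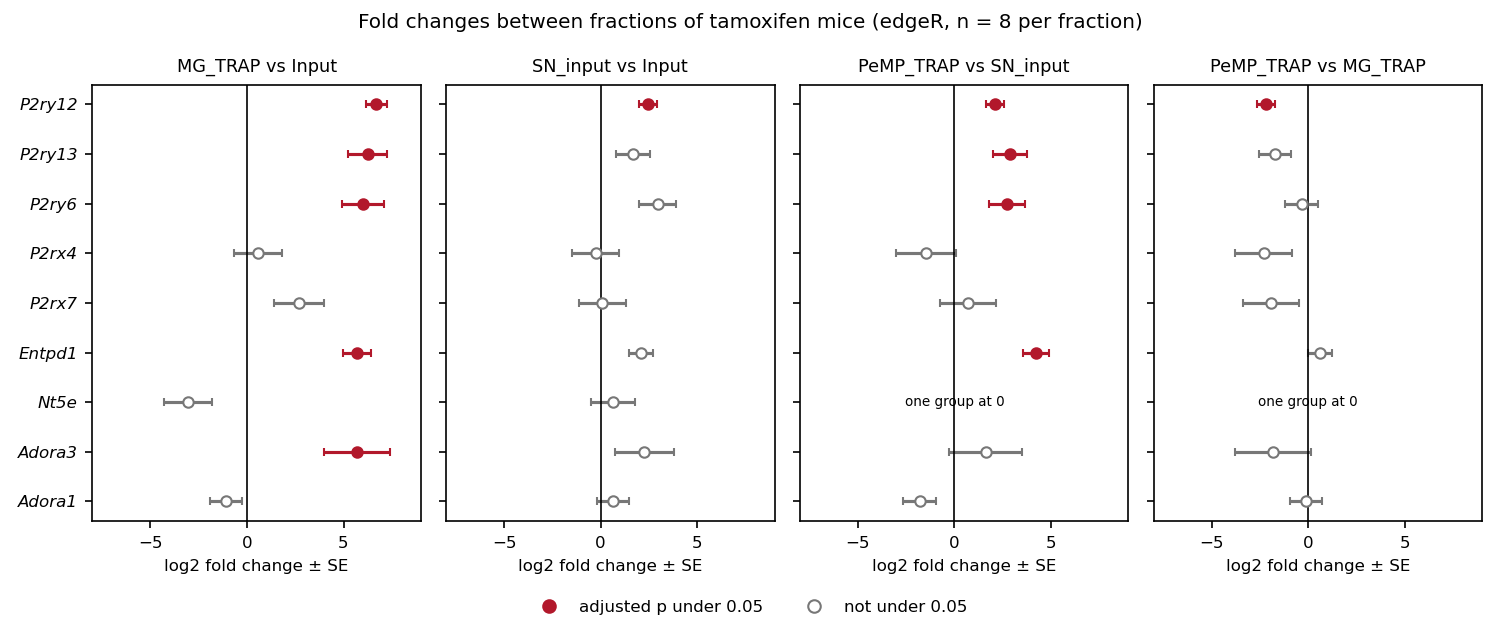
Log2 fold change (horizontal axis, ± SE) of each gene between fractions of tamoxifen mice, with filled points for an adjusted p under 0.05. In PeMP_TRAP against MG_TRAP, P2ry12 is the called gene with a drawn value, at -2.16, and Entpd1 lies at 0.61. Nt5e has no point where 1 group was at 0 in all libraries.

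Entpd1 was at 0, 10.2 and 18.4 CPM (lowest, median and highest of 8) in SN_input and at 94.0, 121 and 343 CPM in PeMP_TRAP. PeMP_TRAP was higher in 8 of 8 letters with no overlap, and J was the highest library. The log2 fold change was 4.23 ± 0.69 (adjusted p = 5e-05), and Entpd1 was called in each set alone, at 4.87 (adjusted p = 0.0483) in the first and 3.70 (adjusted p = 9.69e-06) in the second.

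P2ry12 was at 31.5, 74.9 and 125.6 CPM in SN_input and at 14, 288 and 823 CPM in PeMP_TRAP. It was higher in PeMP_TRAP in 7 of 8 letters, and the exception was H, whose 14 CPM was below every SN_input library. The log2 fold change was 2.10 ± 0.46 (adjusted p = 0.000698). In the first set alone it was 3.09 (adjusted p = 0.063) and in the second alone 1.22 (adjusted p = 0.0349).

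P2ry13 was at 0, 15.2 and 24.3 CPM in SN_input and at 0, 50.1 and 270.2 CPM in PeMP_TRAP, where G was at 0 and J at 3.88 while K was at 270.2. P2ry6 was at 0, 6.61 and 43.0 CPM in SN_input and at 5.25, 14.3 and 299 CPM in PeMP_TRAP, with K far above the rest. Their ranges overlapped, and each was higher in PeMP_TRAP in 6 of 8 letters. The log2 fold changes were 2.86 ± 0.89 (adjusted p = 0.0117) and 2.73 ± 0.93 (adjusted p = 0.0216). Both calls rest on K: without it the values were 2.40 (adjusted p = 0.0651) for P2ry13 and 1.61 (adjusted p = 0.231) for P2ry6. P2ry13 was not called in either set alone (adjusted p = 0.068 and 0.126), nor P2ry6 in the first (0.304).

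Nt5e, the enzyme that makes adenosine from AMP, was at 0 in all 8 tamoxifen PeMP_TRAP libraries and at 0, 1.21 and 7.66 CPM in SN_input. It was called lower in PeMP_TRAP (adjusted p = 0.000354). No fold is given, since the mean SN_input level of 2.12 CPM is under the highest limit of a count of 0 in PeMP_TRAP, 4.05 CPM. P2rx4 was at 0 in 5 of 8 PeMP_TRAP libraries and P2rx7 in 3, and neither was called (adjusted p = 0.506 and 0.759). In the second set alone P2rx4 was called lower (-5.40, adjusted p = 0.00596), where 6804 genes were called in all. Adora1 ran from 0 in H and K to 186 CPM in G, against 23.9 to 293 CPM in SN_input, and its log2 value of -1.80 ± 0.85 was not called (adjusted p = 0.104), though it was without E (-2.58, adjusted p = 0.0395), with DESeq2 (-2.06, adjusted p = 0.0347) and with limma voom (-5.05, adjusted p = 0.00024).

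Adora3 differed between the sets. Over both sets its log2 value in PeMP_TRAP against SN_input was 1.62 ± 1.90 (adjusted p = 0.56), and it was called lower in the second set alone (adjusted p = 0.00018) and without E (adjusted p = 0.0177). In PeMP_TRAP it was at 0.794 CPM in D, 89.3 in E and 0 in F, and at 0 in all 5 second-set libraries. The difference between the sets was called in PeMP_TRAP against SN_input (adjusted p = 0.00814) and against MG_TRAP (adjusted p = 0.0025). It was 1 of 9 genes lower in each, where 14.9% and 14.8% of 17961 genes were called lower in the second set. Without E the adjusted p-values were 0.218 and 0.0688. With the replicate block the former was 0.0965. P2rx4 was called lower in the second set in both with DESeq2 (adjusted p = 0.0264 and 0.0449) and limma voom (0.00406 and 0.0141). Over all genes DESeq2 called 3368 and 3710 set differences in these comparisons, and limma voom 7531 and 4599. No gene of the 9, and 0% of all genes, differed between the sets in MG_TRAP against Input or in SN_input against Input by edgeR. There 0 of the 9 had an unadjusted p under 0.05, and DESeq2 and limma voom also called 0 of the 9.

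Between the 2 immunoprecipitates, P2ry12 was lower in the one from processes, whereas the levels of Entpd1 overlapped. The count of PeMP_TRAP against MG_TRAP was 0 of 9 higher (3.07% of all genes) and 2 of 9 lower, P2ry12 and Nt5e (20.7% of all genes). P2ry12 was lower in 8 of 8 letters, and its 14 to 823 CPM in PeMP_TRAP did not reach the 1569 to 5512 CPM of MG_TRAP. The log2 fold change was -2.16 ± 0.46, or 4.48-fold lower (adjusted p = 0.000779), beside a median of -0.52 over all genes. Scaled to total counts the value was -3.04 and the median over all genes -1.27. The fall was called in the second set alone (-2.94, adjusted p = 6.42e-05) and not in the first alone (-1.51, adjusted p = 0.519), where 0 of all genes were called. Nt5e, at 0 to 1.09 CPM in MG_TRAP, was near the limit of detection in both, and limma voom did not call it (adjusted p = 0.434). P2rx4 was called lower without E (-4.55, adjusted p = 0.0285), with DESeq2 (0.0157), with limma voom (0.000802) and in the second set alone (0.0031). P2rx7 was called lower with DESeq2 (0.0198), with limma voom (0.00767) and in the second set alone (0.00666). Adora3 was called lower without E (0.00114), with limma voom (0.00146), with the replicate block (0.0444) and in the second set alone (1.07e-05). Over all genes DESeq2 called 4925, limma voom 7146 and the second set alone 6653 in this comparison.

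Entpd1 was at 55.2 to 295 CPM in MG_TRAP and 94.0 to 343 CPM in PeMP_TRAP, higher in 4 letters and lower in 4. Its log2 fold change was 0.61 with an interval from -0.60 to 1.82 (adjusted p = 0.539), and with total counts the sign turned, at -0.15. P2ry13 was lower in PeMP_TRAP in 8 of 8 letters, at -1.71 ± 0.84 (adjusted p = 0.146). It was called lower with total counts (-2.38, adjusted p = 0.0395), DESeq2 (-2.24, adjusted p = 0.0232) and limma voom (-4.62, adjusted p = 0.00173). P2ry6 was lower in 7 of 8, at -0.34 with an interval from -2.08 to 1.41 (adjusted p = 0.844).

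Set against microglial RNA in the same library, the P2Y receptors of tamoxifen mice were lower in processes. P2ry12 amounted to 7.71%, 12.1% and 18.1% (lowest, median and highest of 8) of the summed CPM of the 10 microglial markers in MG_TRAP and to 0.0991%, 1.42% and 2.72% in PeMP_TRAP. The ranges did not overlap, in either set. On this scale only 4 genes were computed, so no share over all genes can be given. By edgeR, without the markers as reference, 20.7% of all genes were lower in PeMP_TRAP than in MG_TRAP. SN_input of tamoxifen mice, the starting material, held 3.16% to 10.8%, also above every tamoxifen PeMP_TRAP library. In control PeMP_TRAP the share was 0.593% in A, 6.20% in B and 9.31% in C, so that B and C lay above all tamoxifen PeMP_TRAP libraries. On the scale of log2 of (CPM + 1) over that sum, PeMP_TRAP was lower than MG_TRAP by 3.38 for P2ry12, 10.4-fold, with -2.65 in the first set and -3.82 in the second (n = 8 per fraction, exact two-sided permutation test within sets, p = 0.000397, the smallest these permutations can give, adjusted p = 0.000794 over 4 genes).

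P2ry13 went from 0.920%, 2.3% and 3.58% of the marker sum in MG_TRAP to 0%, 0.290% and 1.24% in PeMP_TRAP, a log2 difference of -3.56 (exact permutation test, adjusted p = 0.000794). Without G, at 0% in PeMP_TRAP, the difference was -2.89. P2ry6 went from 0.161%, 0.839% and 1.03% to 0.0454%, 0.0728% and 1.37%, a log2 difference of -2.20 (exact permutation test, adjusted p = 0.018), lower in 7 of 8 letters with K as the exception. That call was lost without any of G, H, I or J (adjusted p = 0.0533). Entpd1 was at 0.396%, 0.717% and 1.54% in MG_TRAP and 0.222%, 0.615% and 1.78% in PeMP_TRAP, a log2 difference of -0.05 (exact permutation test, adjusted p = 0.895).

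The size of the P2ry12 difference depended on the marker it was set against. Against each of the 10 markers taken alone it was negative 10 of 10 times, for example -3.85 against C1qa and -1.64 against Sall1. For Entpd1 the sign was negative against 5 of 10 markers. These 4 tests were chosen after the levels had been seen.

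**Figure D4:**
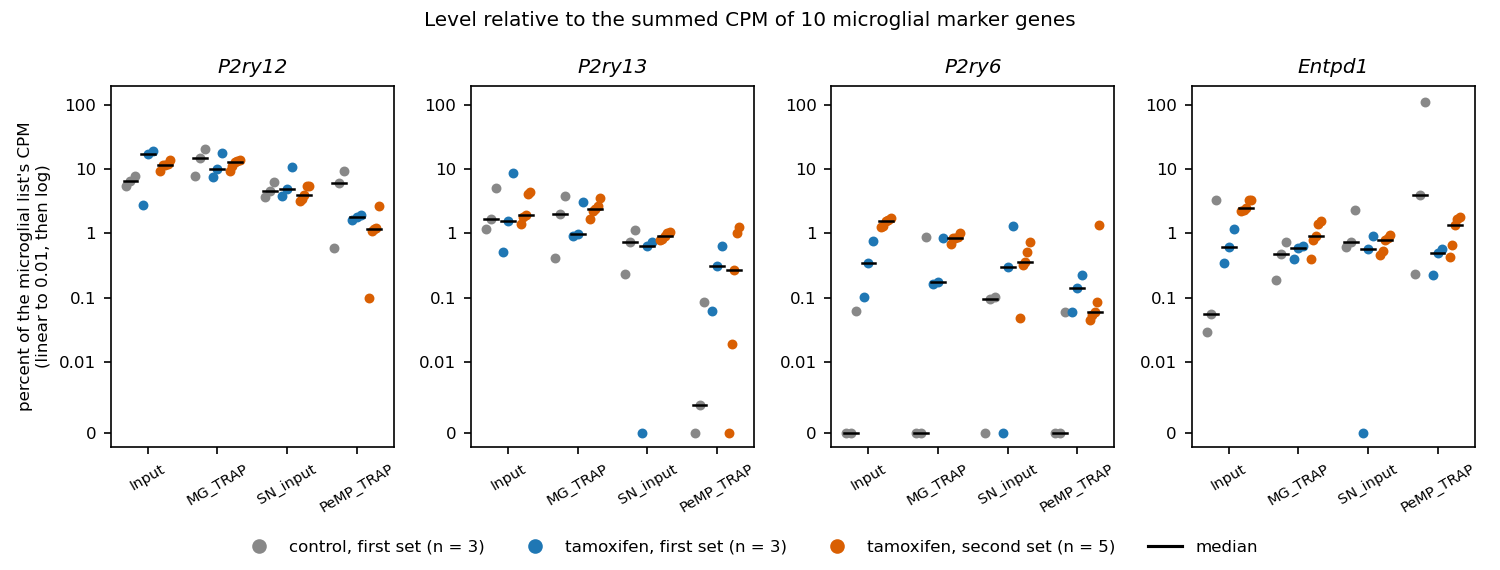
Level of 4 genes as a percent of the summed CPM of 10 microglial marker genes in the same library (vertical axis, linear up to 0.01 and logarithmic above) in the 4 fractions. Points are libraries, coloured by treatment and set, and black bars are medians. P2ry12 in tamoxifen PeMP_TRAP lies between 0.0991% and 2.72%, below all 8 MG_TRAP libraries, whereas Entpd1 overlaps.

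The enrichment of P2ry12 over starting material was smaller in the synaptosome fraction than in whole tissue, by -4.60 ± 0.65 on the log2 scale (adjusted p = 3.55e-05). Nt5e was the other gene called in this difference (adjusted p = 0.0227), so that 2 of 9 were lower where 11% of all genes were. Of the 10 microglial markers 9 were called lower in the same difference, with a median of -3.04. The Nt5e call was lost without G, H or I (adjusted p up to 0.0938), with the replicate block (0.0925), without a filter (0.055), with DESeq2 (0.207) and with limma voom (0.51). P2ry13 stood at -3.39 (adjusted p = 0.0588) and was called without a filter (0.028), with limma voom (0.0416) and without D (0.0256). P2ry6 stood at -3.30 (adjusted p = 0.0881) and was called with DESeq2 (0.0307) and limma voom (0.0466). Limma voom also called Adora3 (0.00897), P2rx7 (0.0495) and Adora1 (0.03) lower, and the second set alone Adora3 (1.71e-05), P2rx7 (0.0312) and P2rx4 (0.0198). Over all genes limma voom called 2265 in this difference and the second set alone 4600. Adora3 was called without E as well (0.00176). Entpd1 stood at -1.47 with an interval from -3.19 to 0.24 (0.336). In the first set alone P2ry12 stood at -4.03 (adjusted p = 0.571), where 0 genes were called.

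The starting materials themselves differed for P2ry12. Total RNA of the synaptosome fraction held 31.5, 74.9 and 125.6 CPM against 4.88, 29.4 and 53.7 CPM in Input, higher in 8 of 8 letters with overlapping ranges. The log2 fold change was 2.44 ± 0.46 (adjusted p = 0.000605), the 1 call of 9 genes where 2.25% of genes were higher. With total counts as the scaling the value was 1.42 (adjusted p = 0.0932), the median of all genes moving from 0.02 to -1.05. The P2ry12 call was also lost with limma voom (2.61, adjusted p = 0.558) and in the first set alone (2.51, adjusted p = 0.606). P2ry6 stood at 2.96 (adjusted p = 0.104) and Entpd1 at 2.08 (adjusted p = 0.0674), and leaving out D brought Entpd1 under the threshold (2.26, adjusted p = 0.00532). Of the 10 microglial markers, 9 were called higher in this comparison (median 3.72). So were 3 of 7 astrocyte markers (median 1.82), 3 of 7 of oligodendrocytes (1.94) and 1 of 7 of border macrophages (2.31). Of 8 neuronal markers 0 were. Mitochondrial genes took 1.19% to 12.6% of the reads in Input and 15.3% to 66.0% in SN_input, highest in F, and their part in the difference was not tested.

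Control mice show how much of each RNA the immunoprecipitation recovers without tamoxifen. P2ry12 was at 27.6, 19.9 and 22.0 CPM in Input of A, B and C and at 404, 164 and 1112 CPM in their MG_TRAP. It was higher in 3 of 3 letters without overlap, with a log2 value of 4.53 ± 1.13 (adjusted p = 0.253, unadjusted p = 0.000256). In that comparison 0 of the 9 genes and 2 of 14771 genes (0.0135%) were called by edgeR, 4 of the 9 had an unadjusted p under 0.05, and DESeq2 called 2 of the 9, P2ry12 (4.49, adjusted p = 0.00159) and P2ry6 (adjusted p = 0.0239). Over all genes DESeq2 called 223 in that comparison. P2ry6 was there at 0 in A and B and at 48.1 CPM in C, and control Input held 1 count of it in all.

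Tamoxifen MG_TRAP of the first set held 5512, 2571 and 1847 CPM of P2ry12 in D, E and F, all above the control libraries. The log2 difference from control was 2.91 ± 1.05 (adjusted p = 0.243, unadjusted p = 0.00827). Entpd1 was at 193, 153 and 97.2 CPM against 12.5, 3.95 and 39.2 CPM in controls, and P2ry13 at 927, 236.5 and 233 CPM against 53.9, 8.56 and 205.5 CPM. Neither overlapped, and neither was called (3.38, adjusted p = 0.263, and 2.71, adjusted p = 0.304). With edgeR 0 of 9 genes and 0% of all genes were called, 3 of the 9 had an unadjusted p under 0.05, and DESeq2 called 1 of the 9, P2ry12 (3.29, adjusted p = 0.0258). With limma voom 3 were called, P2ry12 (3.14, adjusted p = 0.000458), P2ry13 (3.17, adjusted p = 0.0307) and P2ry6 (adjusted p = 0.0108). Over all genes DESeq2 called 875 and limma voom 1197. Adora1 went the other way, at 65.7, 37.8 and 20.2 CPM against 173.5, 174.5 and 117 CPM in controls (log2 -1.63 ± 1.18, adjusted p = 0.516).

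In PeMP_TRAP the difference between treatments was called for P2ry13 and P2ry6, 2 of 9 genes higher where 5.56% of all genes were. P2ry13 was at 28.9, 69.6 and 139 CPM in D, E and F and at 0.488, 0 and 0.246 CPM in A, B and C. The controls held 2 counts in all against 640, a rate ratio of 146 (95% exact interval 40.4 to 1212, counting error only), and the test gave an adjusted p of 0.00721. Without D, the deepest library, the ratio was 309.6. P2ry6 was at 103, 13.3 and 31.1 CPM against 0, 0.885 and 0 CPM, 1 count in all against 1349 (rate ratio 617, interval 111 to 24397, adjusted p = 0.0433). D held 1293 of the 1349, and the ratio was 126 without D (interval 21.6 to 5050.3) and 271 without C. Leaving out any of A, C, D, E or F ended the P2ry6 call (adjusted p from 0.0522 to 0.127). Adora3, at 0 in all controls, was at least 11.3-fold higher by the limit of a count of 0 per library, nearly all of it from E, and was not called (adjusted p = 0.0523), though it was without D (0.0478) and by DESeq2 (0.00887).

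P2ry12 and Entpd1 did not separate the treatments in PeMP_TRAP. P2ry12 was at 823, 361 and 421 CPM in tamoxifen libraries and at 3.42, 93.0 and 592 CPM in controls, so that C lay among the tamoxifen values (log2 1.42 with an interval from -0.57 to 3.41, adjusted p = 0.326). In C, P2ry13 was at 0.246 CPM and P2ry6 at 0. Entpd1 was at 103, 111 and 126 CPM in tamoxifen libraries and at 650, 3.54 and 254 CPM in controls (log2 -0.94 with an interval from -3.67 to 1.79, adjusted p = 0.664), and without A the sign turned (0.15).

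Entpd1 is also known in vascular endothelium. The summed level of 6 endothelial markers was 2114, 268 and 306 CPM in the control PeMP_TRAP libraries A, B and C and 348, 3.22 and 75.6 CPM in D, E and F. In G, H, I, J and K of the second set it was 68.5, 0, 0, 10.5 and 64.5 CPM. Entpd1 was there at 116, 192, 206, 343 and 94.0 CPM. A sum of 7 markers of border macrophages was 302, 0.885 and 3.69 CPM in A, B and C and 20.1, 214 and 120 CPM in D, E and F. In G to K the border macrophage sum was 265, 0, 0, 0 and 325 CPM. The part of these cells in the Entpd1 levels of either set was not tested.

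The remaining comparisons of control mice and of starting materials called 0 of the 9 genes with edgeR, except 1 named at the end. In PeMP_TRAP against SN_input of control mice edgeR called 0% of genes, with 3 of the 9 at an unadjusted p under 0.05. DESeq2 called 3 of the 9 there, and 1275 genes in all. P2ry13 was lower in PeMP_TRAP there in 3 of 3 letters, from 15, 11.3 and 7.46 CPM in SN_input of A, B and C. In SN_input against Input of control mice 0% were called, with 3 of the 9 under an unadjusted 0.05, P2ry12 at 2.39 ± 1.03 (adjusted p = 0.698), and DESeq2 called 0 of the 9. Tamoxifen against control in Input and in SN_input called 0%, with 0 of the 9 under an unadjusted 0.05 and DESeq2 calling 0 of the 9. The treatment difference in enrichment called 0% in whole tissue, with 1 of the 9 (Entpd1) under an unadjusted 0.05 and DESeq2 calling 0 of the 9. In the synaptosome fraction it called P2ry13, 1 of 9 higher where 0.914% of genes were (adjusted p = 0.0417). Its fitted value rests on the 2 counts of the control PeMP_TRAP libraries. With the replicate block the adjusted p was 0.0618. That call was lost without any of A, C, D, E or F (adjusted p from 0.0597 to 0.188).

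The rest of the pathway was read in 43 further genes, of which 30 were tested in tamoxifen mice. In MG_TRAP against Input 5 were higher and 0 lower (4.75% and 1.51% of all genes), with a median log2 value of -0.56. Of these 5, 4 act after the receptors: Gnai2, an inhibitory G protein subunit that P2Y12 couples to (2.87 ± 0.36), Pycard (6.25 ± 0.73) and Nlrp3 (6.13 ± 1.76), parts of the inflammasome that P2X7 can trigger, and Pik3cg (4.69 ± 1.11). The fifth was Pnp, which breaks down inosine (4.85 ± 0.86).

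In PeMP_TRAP against SN_input 4 of the 30 were higher, Gnai2, Pycard, Casp1 and Pnp, and 12 lower (6.24% and 25.3% of all genes), with a median of -1.97 beside -0.72 over all genes. Among the 12 were both other adenosine receptors tested, Adora2a and Adora2b, the ectonucleotidases Entpd2, Entpd3 and Entpd5, and the release channels Panx1 and Panx2. Il1b, listed with the genes that act after the receptors, was lower too. The sets differed here for 6 of 34 genes tested, all lower in the second set (14.9% of all genes). Adora2a, Entpd5 and Pnp were among these. Gnai2 was the 1 of 30 that was higher in PeMP_TRAP than in MG_TRAP (1.25 ± 0.34, adjusted p = 0.00631), while 9 were lower (3.07% and 20.7% of all genes).

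Across all 44 libraries the genes whose log2 CPM was most like that of P2ry12, among 18291 compared, included Selplg (r = 0.885) and Ppp1r18 (0.881). For Entpd1 they were Olfml3 (0.897), Cd74 (0.880) and Fcgrt (0.85), for P2ry13 Akna (0.826), Nrm (0.814) and H2-Oa (0.808), and for P2ry6 Hcls1 (0.825), Rac2 (0.822) and Rin3 (0.811). For Adora3 they were Ccl4 (0.771), Milr1 (0.762) and Ncf4 (0.731). P2rx7 had its nearest at a lower r, Tent5a (0.728), Layn (0.697) and Cd48 (0.688). For P2rx4 they were Plekhg5 (0.908), Zfp688 (0.881) and Rnf34 (0.879), for Adora1 Arhgap33 (0.891), Hspbp1 (0.855) and Cul3 (0.840), and for Nt5e Slc8a3 (0.818), Glipr2 (0.766) and Hhip (0.762).

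Among the 9 genes themselves, P2ry12 ran with P2ry6 (r = 0.684), P2ry13 (0.602), Entpd1 (0.591) and Adora3 (0.589), and not with P2rx4 (-0.10) or Adora1 (-0.05). Entpd1 and Adora1 ran in opposite directions (-0.50). These correlations describe the 44 libraries, which share fractions, sets and depth.

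The authors' deposited table for the first set gives log2 fold changes for MG_TRAP against Input of 7.31 for P2ry12, 6.04 for P2ry13, 8.97 for P2ry6 and 6.22 for Entpd1. For PeMP_TRAP against SN_input, the authors' deposited table gives 3.14, 3.62, 4.2 and 3.66 in the same order, with FDR values of 0.00448, 0.00589, 0.0238 and 0.00921. Recomputed from the first-set counts, the latter were 3.09, 4.23, 2.46 and 4.87, of which Entpd1 was called. The comparisons are not alike: the authors' headers name no treatment for the input side and list a likelihood ratio. The recomputed values used tamoxifen letters D to F alone and the quasi-likelihood test. For Adora3 the authors' table gives 7.77 (FDR 0.00221) in MG_TRAP against Input and 4.46 (FDR 0.0562) in PeMP_TRAP against SN_input.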

How the data were processed

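RNA was amplified with SMART-Seq v4 and made into libraries with NEBNext Ultra II, per the labels' protocols. The submitters' processing notes name Trimmomatic 0.38, FastQC 0.11.7, Bowtie2 2.3.5, STAR 2.7.0d, HTSeq 0.9.1 and edgeR, without a build or strand setting. The authors deposited HTSeq counts, whole reads per Ensembl gene. For the first set they also deposited a table of log2 values, a test score (likelihood ratio) and p-values, per the file headers, used here only where named. Names, positions and exon lengths came from GENCODE M21 (GRCm38).

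The 50714 identifiers shared by both sets were analysed, with CPM and RPKM computed over them. Comparisons used edgeR 4.0.16 in R 4.3.3 (quasi-likelihood test, TMM scaling, filterByExpr at its minimum of 10 counts), with Benjamini-Hochberg adjusted p under 0.05 as a call. Shares of all genes were not counted for unadjusted p-values. Tamoxifen comparisons used 32 libraries with set as covariate, and comparisons with controls used the 24 first-set libraries. Alternatives were RLE factors, total counts, no filter, DESeq2 1.42.0, limma 3.58.1 voom, each set alone, letter as a block and each letter left out. Ratios of pooled counts with a library left out were added after the values had been seen. The levels relative to the microglial list were tested by exact permutation of libraries within sets (5040 arrangements), added after the levels had been seen. The genes named are the 9 members, the 43 listed pathway genes and the 3 most like genes of each member, of which 1 is not reported here. The members and lists were chosen with earlier results of these data known.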

Additional observations from a re-analysis of the deposited data

Results flagged for a closer look

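A rule that flags about 1 in 20 groups by chance assumes normally distributed values from a single population. The groups tested held CPM of first-set and second-set libraries together, so that rate cannot judge the number flagged. Single libraries stood far from the others of their group in 12 of 35 groups of values tested. For tamoxifen replicate D these were P2ry12 in MG_TRAP (5512 CPM), P2ry13 in Input (26.3 CPM) and MG_TRAP (927 CPM), P2ry6 in SN_input (43.0 CPM), Adora3 in SN_input (13.1 CPM) and P2rx7 in PeMP_TRAP (36.7 CPM), each the highest of its group. Replicate E was lowest for P2rx4 in Input (8.71 CPM) and highest for P2rx7 in Input (24.4 CPM) and for Adora3 in PeMP_TRAP (89.3 CPM). The others were P2ry6 in PeMP_TRAP of K (299 CPM), Entpd1 in PeMP_TRAP of J (343 CPM) and Nt5e in SN_input of H (7.66 CPM).

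Tests of a difference between 2 effects were passed in 5 cases. The enrichment in the synaptosome fraction minus that in whole tissue was -4.60 for P2ry12 and -5.97 for Nt5e on the log2 scale. The second set minus the first was -10.17 for Adora3 in PeMP_TRAP against SN_input and -12.82 in PeMP_TRAP against MG_TRAP. The synaptosome enrichment of tamoxifen minus control mice was 9.10 for P2ry13. Fitted values for Nt5e and Adora3 come from groups at 0, and that for P2ry13 from control PeMP_TRAP libraries with 2 counts in all, so they are no measure of size.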

How the results depend on the processing

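Of the 9 genes, the number called changed by more than 1.5 times in these cases. PeMP_TRAP against SN_input called 5 and 1 in the first set alone. PeMP_TRAP against MG_TRAP called 2, and 5 with DESeq2, 6 with limma voom, 0 in the first set alone and 5 in the second. SN_input against Input called 1, and 0 with total counts, limma voom or the first set alone and 2 in the second. The synaptosome minus whole enrichment called 2, and 6 with limma voom, 0 in the first set and 5 in the second. The set differences called 1 each in PeMP_TRAP against SN_input and against MG_TRAP, and 2 with DESeq2 and 4 with limma voom. Tamoxifen against control in MG_TRAP called 0, and 1 with DESeq2 and 3 with limma voom. In controls, DESeq2 called 2 in MG_TRAP against Input and 3 in PeMP_TRAP against SN_input, where edgeR called 0. Over all genes DESeq2 called 223 and 1275 there. The cause was not tested, beyond the fewer samples of a set alone.

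Leaving out a letter gave 4 to 5 calls in MG_TRAP against Input, 3 to 7 in PeMP_TRAP against SN_input, 2 to 4 in PeMP_TRAP against MG_TRAP, 1 to 2 in SN_input against Input, 1 to 3 in the enrichment difference, 0 to 2 in each of the 2 PeMP_TRAP set differences, 1 to 3 in tamoxifen against control PeMP_TRAP and 0 to 1 in the synaptosome enrichment of tamoxifen minus control. Adora3 in PeMP_TRAP against SN_input turned from 1.62 to -7.55 in the second set alone and -4.52 without E, both called lower (highest value with a letter left out 2.13). Relative to the microglial list, Entpd1 was 0.47 with the mean of log2 marker levels and -0.36 to 0.19 with a letter left out, and P2ry6 -2.57 to -1.96. With a letter left out P2ry13 was -3.99 to -2.89, the latter without G, and P2ry12 -3.58 to -2.87. The median over all genes moved from -0.11 to -0.65 (RLE) and -0.45 (total counts) in MG_TRAP against Input, and from -0.72 to -1.07 with RLE in PeMP_TRAP against SN_input.

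Over all genes, MG_TRAP against Input called 923, 2626 unfiltered, 1613 with DESeq2 and 329 in the first set alone. PeMP_TRAP against SN_input called 4645 and 372 in the first set. PeMP_TRAP against MG_TRAP called 3507, 7146 with limma voom and 6653 in the second set. Tamoxifen against control MG_TRAP called 0, 875 with DESeq2 and 1197 with limma voom.

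The labels do not say whether a letter marks the same animals across fractions. The correlation of same-letter deviations in MG_TRAP and Input was over 0.1 for 1 of 8 tamoxifen letters, and 6 of 8 correlated best with their own letter, as did 6 of 8 in SN_input with Input, 5 of 8 in PeMP_TRAP with MG_TRAP and 2 of 8 in PeMP_TRAP with SN_input, a hint from the data and not from the design. With letter as a replicate block the calls were 5 in MG_TRAP against Input, 5 in PeMP_TRAP against SN_input, 3 in PeMP_TRAP against MG_TRAP, 1 in the enrichment difference, 0 in the set difference of PeMP_TRAP against SN_input and 0 in the synaptosome enrichment of tamoxifen minus control. P2rx4, P2rx7, Nt5e and Adora3 were at 0 in 5, 3, 8 and 6 of the 8 tamoxifen PeMP_TRAP libraries, most of these zeros in the second-set libraries with 20352794 to 35427238 reads.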
